A study of Mus musculus with 9 samples.

Results

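Potassium channel subunit genes were taken as every row of the gene count tables whose symbol begins with Kcn, the root shared by the pore-forming and accessory subunits of potassium channels. The glial inward rectifier Kcnj10 and the antisense or overlapping transcript Kcnq1ot1 were left out of the 95 symbols that match, which leaves 93 of the 21769 genes listed. The choice rests on names, so it includes the calcium-binding KChIP proteins, the Kv beta subunits and Kcnrg, a soluble regulator, none of which forms a pore. Counts came from 9 libraries of polyadenylated RNA, each made from 2 whole mouse retinae. A first group of 3 libraries was from wild type mice at postnatal day 48, with retinae labelled normal. The second group of 3 was from rd10 mice at postnatal day 61, with retinae labelled degenerated. rd10 mice carry a mutation in Pde6b, the rod phosphodiesterase, and lose their rods in the weeks after birth. The third group of 3 was from mice that express green fluorescent protein (GFP), with retinae labelled normal. The labels also give postnatal day 42 for a line written as Gg13, taken as the GFP mice because no other group lacked an age. The promoter that drives GFP and the strain background are not given in the sources used here, and age coincided with genotype, so the effects of age and genotype cannot be told apart.

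Potassium channels let potassium leave or enter a cell, set its resting potential and end its electrical signals. Voltage-gated (Kv) pore subunits open on depolarisation and are joined by beta subunits, KChIPs and electrically silent subunits that change their gating, while inward rectifiers (Kir) and leak channels (K2P) hold the resting potential. In photoreceptors, channels that include the silent subunit Kcnv2 carry a standing outward current of the inner segment, and loss of KCNV2 in humans causes a cone dystrophy with altered rod responses. Inner retinal neurons use a different set, such as the fast Kv3 channels of amacrine and ganglion cells and the A-type Kv4 channels of dendrites, and Müller glia take up potassium through Kir channels.

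Totals ran from 9597635 to 12149448 counts per library, and the 93 genes together took 0.269% to 0.376% of them. Enough counts for a test were present for 70 of the 93 (a minimum count of 10 in a group-sized number of libraries). Of the 23 that were not tested, Kcnk16, Kcnk18 and Kcnk7 had no count in any library, and the other 20 averaged at most 0.512 CPM, the highest of them Kcnk6. CPM stands here for counts scaled to a library size of 1000000, with TMM factors that adjust for library composition. Lens RNA was present in 4 libraries, wild type 2, wild type 3, rd10 2 and GFP 1, which had over 100 CPM of the lens crystallin Cryaa, while the other 5 had at most 10.4 CPM.

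Markers of retinal cell types also moved with the groups. All 8 rod markers were lower in rd10 than in wild type, with a summed level of 341 to 758 CPM against 37987 to 48566 in wild type and 39229 to 44118 in GFP. Of 7 cone markers, 1 was higher and 1 lower. Higher were 8 of 10 bipolar markers (2802 to 3494 CPM against 1437 to 1815 in wild type), 7 of 7 amacrine markers (2062 to 2242 against 1319 to 1431), 4 of 8 ganglion cell markers (1547 to 1749 against 1081 to 1267) and 2 of 4 horizontal cell markers (106 to 133 against 106 to 111). The same held for 6 of 6 Müller glia markers (7849 to 8450 CPM against 3688 to 5041), 8 of 8 microglia markers (179 to 209 against 55.7 to 66.5), 3 of 6 pigment epithelium markers (139 to 170 against 57.8 to 129), 1 of 8 vascular markers (581 to 807 against 155 to 276) and 0 of 8 lens markers. None of these marker genes was at 0 in all libraries. Because whole retinae were sequenced, fewer cells of a type and less RNA per cell cannot be told apart, and the part of cell composition in the results that follow was not tested.

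A larger share of potassium channel subunit genes than of all genes rose in rd10 retinae, and the most abundant in wild type, Kcnj14 and Kcnv2, fell far. In rd10 against wild type, 28 of the 70 tested genes (40%) rose, against 14.5% of all 14300 genes tested, and 4 (5.71%) fell, against 13.9% of all genes (edgeR quasi-likelihood test, Benjamini-Hochberg adjusted p below 0.05). The folds of the 28 ran from 1.44 to 3.54, with 6.86 for Kcng1, and had a median of 1.84, and 10 of them were at least 2-fold. Kcng1 and Kcnk13 reached the minimum count for a test only through the rd10 libraries, where they were high, and of the other 68 tested genes 26 rose. Over all 70 the median log2 difference was 0.77, against -0.03 over all genes, and 61 of the 70 (87.1%) lay above 0, against 48.1% of all genes. Against GFP, 26 rose (37.1%, with 15.2% of all genes) and 4 fell (5.71%, with 15.0% of all genes), and the median log2 difference was 0.75. Both comparisons share the rd10 libraries, so their calls do not count as separate evidence. Across both, 22 genes rose and 3 fell, among them Kcnv2 and Kcnj14. Kcna6, Kcnh1, Kcnh7, Kcnj12, Kcnj3 and Kcnk13 rose against wild type only, and 4 genes, such as Kcnab3, Kcnip3 and Kcnk4, against GFP only. Kcnn1 fell against wild type only and Kcne2 against GFP only.

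**Figure D1:**
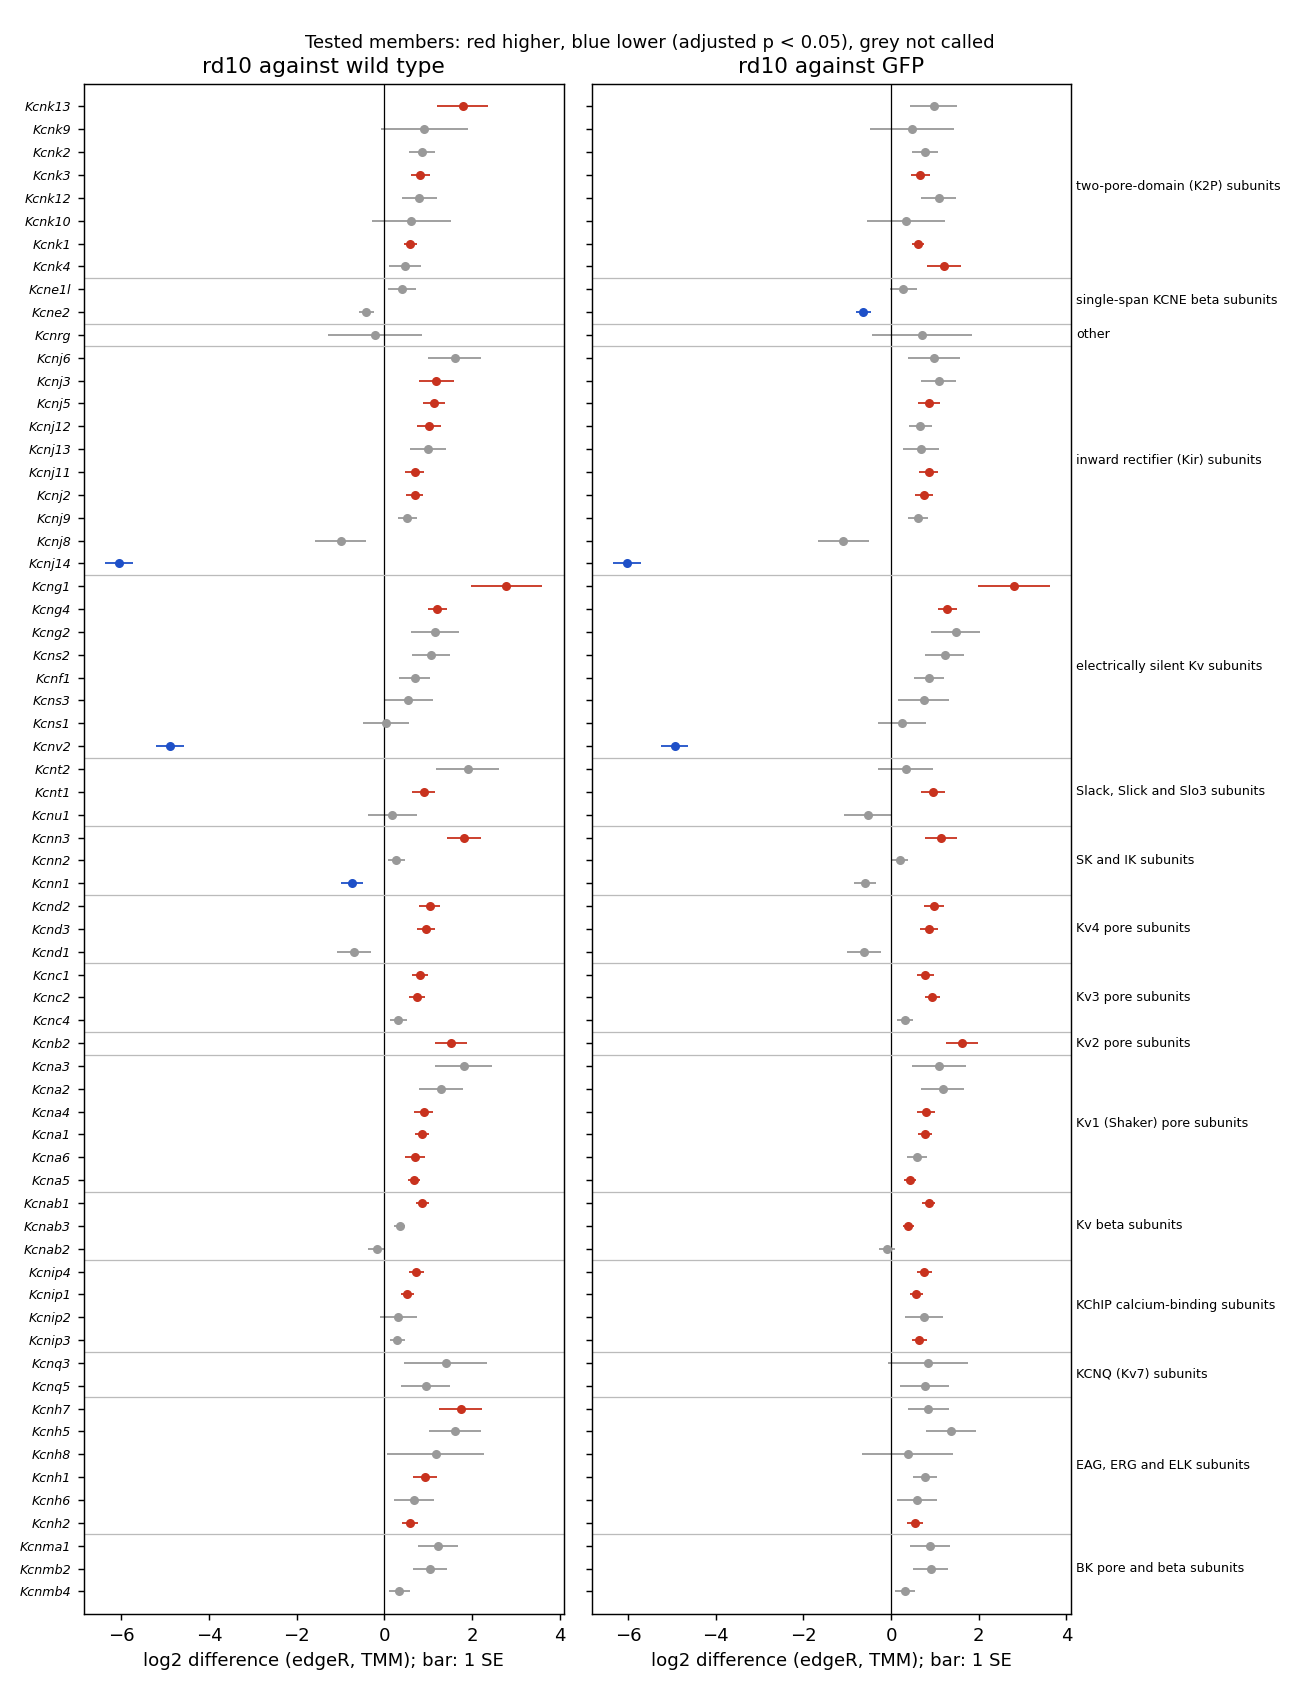
Log2 difference of 66 of the 70 tested genes in rd10 against wild type (left) and against GFP (right), grouped by subunit family, with bars of 1 standard error and colour for the call at adjusted p below 0.05. Most points lie to the right of 0, while Kcnj14 and Kcnv2 lie at -6.04 and -4.88 in the left panel.

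The libraries were also compared without any model. In 39 of the 70 genes (55.7%) all 3 rd10 libraries lay above all 6 wild type and GFP libraries, which held for 20.7% of all genes. All 3 lay below the 6 in 5 genes (7.14%, against 19.0% of all genes), among them Kcnn1, Kcnv2, Kcnj14 and Kcne2. The 39 include Kcng1 and Kcnk13, which reached the minimum count only through the rd10 libraries. The number of risers depends on how libraries are scaled. With libraries scaled to the summed counts of the inner retinal neuron markers instead of TMM, the median of all genes moved to -0.72 on the log2 scale and that of the tested potassium channel genes to 0.08. Under that scaling 2 genes rose (2.86%, with 1.68% of all genes), Kcnn3 and Kcng1, and 8 fell (11.4%, with 51.7% of all genes). Risers thus made up 20% of the calls in place of 87.5%. Over all genes tested, risers made up 3.14% of the calls in place of 51.0%. The 8 were the 4 that fell under TMM, with Kcne2, Kcnab2, Kcnj8 and Kcnd1. Of the 28 risers, 5 then had a log2 difference below 0. Against GFP the same scaling gave 2 risers (2.86%, with 2.04% of all genes), Kcng1 and Kcng4, and 8 that fell (11.4%, with 51.5% of all genes). Kcng1, a riser in both comparisons, was tested only because its counts were high in rd10. With libraries scaled to their totals alone, 45 rose (64.3%, with 25.2% of all genes) and 3 fell (4.29%, with 7.53%), and the median of all genes stood at 0.25. Leaving out wild type 3, rd10 1 or rd10 3 brought the risers against wild type to 16, 17 and 18, and the share of all genes that rose to 8.82%, 8.78% and 8.79%. Without the 4 libraries that held lens RNA, the lone wild type library left shows no spread of its own, so calls are not given. The median log2 difference in rd10 against wild type was then 0.68 over the potassium channel genes tested, against 0.009 over all genes.

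**Figure D2:**
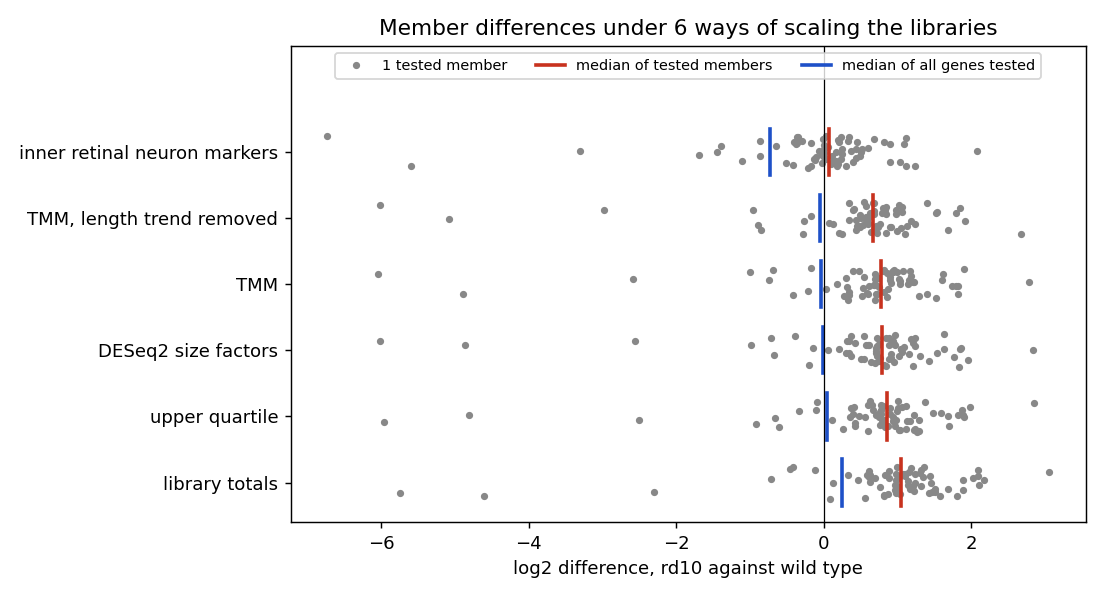
Log2 differences in rd10 against wild type under 6 ways of scaling the libraries, with 1 point per tested gene, a red bar at the median of the tested potassium channel genes and a blue bar at the median of all genes. The red bar stays to the right of the blue bar in each row, at 0.77 against -0.03 with TMM and at 0.08 against -0.72 with inner retinal neuron markers.

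The largest decreases were in Kcnj14 and Kcnv2. Of the counts of the 89 potassium channel subunit genes reported here, they held 34.8% to 40.9% in wild type libraries, 36.6% to 40.8% in GFP libraries and 0.874% to 1.26% in rd10 libraries. Kcnv2, the silent subunit of photoreceptors (chr19:27397109-27411669, plus strand, build mm9), had 763, 679 and 494 CPM in wild type libraries 1 to 3, 782, 456 and 767 CPM in GFP and 17.8, 19.1 and 28.6 CPM in rd10. Every rd10 library was below every other library, by more than an order of magnitude. Kcnv2 fell 29.5-fold against wild type (log2 difference -4.88, SE 0.31, edgeR adjusted p = 1.78e-06) and 30.6-fold against GFP (edgeR adjusted p = 1.71e-06).

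Kcnj14, an inward rectifier pore subunit (chr7:53071837-53080117, minus strand), had 543, 591 and 369 CPM in wild type, 459, 501 and 521 CPM in GFP and 4.58, 9.01 and 9.22 CPM in rd10. It had the greatest decrease of the 70 tested genes, and no rd10 library came near the others. Kcnj14 fell 65.7-fold against wild type (log2 difference -6.04, SE 0.32, edgeR adjusted p = 6.77e-07) and 64.7-fold against GFP (edgeR adjusted p = 6.46e-07). Kcnv2 and Kcnj14 moved with the 8 rod markers, whose median log2 difference was -6.83.

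With TMM scaling, the other 87 genes reported here together moved the opposite way. With libraries scaled to inner retinal neuron markers the median log2 difference of the tested genes was 0.08 in place of 0.77. The sums below were not recomputed under that scaling. Kcnv2 and Kcnj14 summed to 1305, 1270.5 and 863 CPM in wild type, 1240.2, 957 and 1288 CPM in GFP and 22.4, 28.1 and 37.8 CPM in rd10. The other 87 summed to 1888, 1873 and 1615 CPM in wild type, 1922, 1655 and 1867 CPM in GFP and 2537, 2410.0 and 2954 CPM in rd10, so that each rd10 library was above each other library. Over all 91 other genes, with those not reported here, the rd10 and GFP libraries overlapped, at 1919.9 to 2533 CPM in wild type, 1999 to 2721 CPM in GFP and 2655 to 3330 CPM in rd10.

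**Figure D3:**
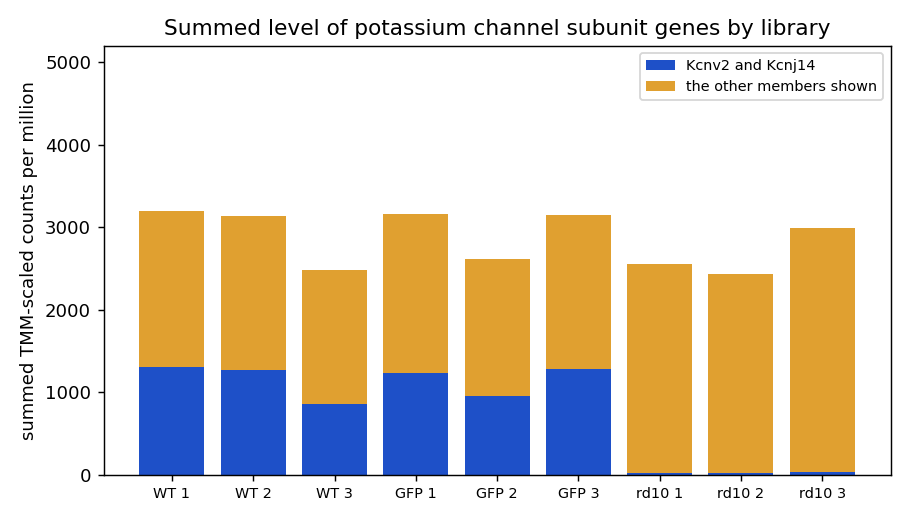
Summed TMM-scaled CPM of Kcnv2 and Kcnj14 (blue) and of the other 87 genes reported here (orange) in each of the 9 libraries. The blue part shrinks from 863 to 1305 CPM in the wild type and GFP libraries to 22.4 to 37.8 CPM in rd10, while the orange part is tallest in the rd10 libraries.

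Levels can be compared between genes only per length of transcript, here as CPM per kilobase of the longest annotated transcript, and the order is over the genes reported here. In wild type retinae Kcnj14 led at 187 ± 43.5 CPM per kilobase (SD, n = 3), followed by Kcnv2 at 126 ± 26.9 and Kcnab2, a Kv beta subunit with an oxidoreductase fold, at 97.0 ± 20.5. These leading genes overlapped each with the next. After a gap followed Kcne2 (32.2 ± 2.91), Kcnh2 (28.5 ± 3.24), Kcnk1 (26.2 ± 3.37), Kcna5 (25.4 ± 1.87) and Kcnip4 (24.6 ± 2.42), whose libraries overlapped from each gene to the next. In GFP retinae the same genes held the first 8 places, with Kcnj14 at 184 ± 11.9 and Kcnv2 at 131 ± 36.0 CPM per kilobase.

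In rd10 retinae Kcnab2 held the first place at 86.2 ± 10.6 CPM per kilobase, apart from all others. Next came Kcnh2 (42.6 ± 6.13), Kcna5 (40.7 ± 4.44), Kcnip4 (40.7 ± 2.65) and Kcnk1 (39.6 ± 2.17), whose libraries overlapped from each gene to the next, then Kcnip1 (35.1 ± 1.97), Kcnab3 (28.4 ± 0.833) and Kcnip3 (28.0 ± 1.38). Kcnip1, Kcnab3 and Kcnip3 were not among the first 8 in wild type or GFP, and Kcnj14, Kcnv2 and Kcne2 were not among them in rd10. Kcnab2 itself did not pass the test (344, 472 and 325 CPM in wild type, 350, 292 and 373 in rd10, log2 difference -0.17, edgeR adjusted p = 0.534).

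Kcnb2 is a pore subunit of delayed rectifier channels. Kcnb2 (chr1:15302533-15704295) had 5.35, 4.43 and 2.21 CPM in wild type, 2.81, 4.36 and 4.10 CPM in GFP and 10.1, 8.77 and 15.4 CPM in rd10. Each rd10 library was above each other library. Kcnb2 rose 2.86-fold against wild type (log2 difference 1.52, SE 0.36, edgeR adjusted p = 0.0119) and 3.05-fold against GFP (edgeR adjusted p = 0.00888). Its call against wild type ended without rd10 3 (edgeR adjusted p = 0.0516).

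Silent Kv subunits form no channel alone and assemble with other Kv subunits. Of the 10, 8 were tested, of which 2 rose against wild type, Kcng4 and Kcng1, and 1 fell, Kcnv2. Kcng4 (chr8:122147754-122159580) had 24.2, 32.2 and 19.4 CPM in wild type, 23.2, 20.3 and 28.5 CPM in GFP and 53.7, 54.2 and 67.7 CPM in rd10, with no overlap. Kcng4 rose 2.32-fold (log2 difference 1.21, SE 0.22, edgeR adjusted p = 0.00296) and 2.44-fold against GFP (edgeR adjusted p = 0.0021).

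Kcng1 (chr2:168087198-168094831) was a rare transcript, with 0.606, 0.385 and 0.201 CPM in wild type, 0.181, 0 and 0.953 CPM in GFP and 2.13, 2.01 and 4.21 CPM in rd10. These levels rest on 12 counts in the wild type group, 12 in GFP and 109 in rd10, and the rd10 libraries were above all others. As only the rd10 libraries reached the minimum count, Kcng1 was tested only because it was high there, and its values are a description. Kcng1 rose 6.86-fold (log2 difference 2.78, SE 0.81, edgeR adjusted p = 0.0277) and 6.98-fold against GFP (edgeR adjusted p = 0.0253), and the call against wild type ended without wild type 2, wild type 3, rd10 1 or rd10 3 (edgeR adjusted p from 0.0545 to 0.104). The 5 silent subunits that did not pass had log2 differences from 0.04 (Kcns1) to 1.16 (Kcng2).

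Promoter sequences show whether risers share letters known from photoreceptor genes. RefSeq promoters (assembly GRCm38.p6, 250 bases before to 50 after the transcription start) were matched by symbol for 68 of the 93 genes, with 93 start sites. Kcnv2 and Kcnj14 were not matched. The letters TAATCC, read on both strands, are the core that the photoreceptor homeodomain factors Otx2 and Crx bind. They were found in 2320 of all 32851 promoters (7.06%) and in 3 of the 93 promoters of potassium channel genes (3.23%). Of the genes that rose against wild type, 21 were matched, some with several start sites. Their 29 promoters held the letters in 1 case, that of Kcng4. Such a match describes letters and not a bound site, and the median GC content was 52.7% over all promoters and 58.0% over those of the potassium channel genes. Shown here are the promoter of Kcng4 (chr8:119635675-119635930, minus strand, GRCm38.p6), which holds the match in capitals, its last letter on the start base, and that of Kcnn3 (chr3:89519914-89520169, plus strand, GRCm38.p6), a riser that holds none.
Kcng4: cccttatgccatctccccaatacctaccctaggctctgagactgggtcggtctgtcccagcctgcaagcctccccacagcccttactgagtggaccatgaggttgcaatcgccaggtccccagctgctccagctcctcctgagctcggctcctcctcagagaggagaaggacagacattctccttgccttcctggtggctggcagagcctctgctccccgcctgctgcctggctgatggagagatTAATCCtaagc
Kcnn3: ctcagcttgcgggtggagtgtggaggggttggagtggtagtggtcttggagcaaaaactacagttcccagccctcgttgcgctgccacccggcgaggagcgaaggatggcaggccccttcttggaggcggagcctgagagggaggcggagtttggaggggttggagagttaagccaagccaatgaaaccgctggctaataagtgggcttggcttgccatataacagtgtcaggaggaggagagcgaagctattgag

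Calcium-activated SK and IK subunits carry the afterhyperpolarisation that follows a spike. Of the 4, 3 were tested, and they split. Kcnn3 (chr3:89324086-89476416, build mm9) had 1.41, 1.54 and 1.00 CPM in wild type, 2.36, 1.60 and 2.38 CPM in GFP and 4.50, 3.38 and 6.20 CPM in rd10, each rd10 library above the others. Kcnn3 rose 3.54-fold against wild type (log2 difference 1.82, SE 0.38, edgeR adjusted p = 0.0064) and 2.21-fold against GFP (edgeR adjusted p = 0.0387), and with libraries scaled to inner neuron markers its log2 difference was 1.12 against wild type (edgeR adjusted p = 0.0256) and 0.44 against GFP, which did not pass (0.333).

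Kcnn1 went the opposite way, with 15.9, 24.1 and 24.7 CPM in wild type, 17.2, 17.0 and 24.2 CPM in GFP and 10.2, 13.5 and 15.0 CPM in rd10. It fell 1.67-fold against wild type (edgeR adjusted p = 0.0444) and did not pass against GFP (edgeR adjusted p = 0.0882), and the first call ended when any of 7 libraries was left out (all except wild type 1 and GFP 2, edgeR adjusted p from 0.0505 to 0.168). Kcnn2 did not pass (log2 difference 0.28). Kcnn4, the intermediate-conductance subunit of blood and immune cells, had 0 counts in wild type, 4 counts in rd10, all in library 3, and 2 counts in GFP, all in library 2, and was not tested.

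The large-conductance BK channel opens with voltage and calcium together. Its pore gene Kcnma1 (chr14:24117983-24823427) had 68.0, 47.0 and 25.4 CPM in wild type, 79.1, 30.5 and 67.8 CPM in GFP and 81.6, 67.0 and 178 CPM in rd10. The groups overlapped, 1 rd10 library stood well above the rest, and the log2 difference of 1.22 (SE 0.46) did not pass (edgeR adjusted p = 0.0685, and 0.162 against GFP). With a trend on transcript length taken out of each library, described at the end, its log2 difference was 0.83 with an edgeR adjusted p of 0.0382. No BK gene of the 3 tested passed in either comparison, and Kcnmb2 and Kcnmb4 had log2 differences of 1.04 and 0.34 against wild type. The related sodium-activated pore gene Kcnt1 rose 1.86-fold (edgeR adjusted p = 0.0289) and 1.94-fold against GFP (edgeR adjusted p = 0.0214), a call against wild type that ended without wild type 2, wild type 3, rd10 2 or rd10 3 (0.0633 to 0.0998).

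Kv1 pore subunits keep axons and terminals near rest. Against wild type, 4 of the 6 tested rose, Kcna1 (45.4 ± 9.06 to 82.4 ± 2.24 CPM, SD, n = 3 each, 1.82-fold, edgeR adjusted p = 0.00431), Kcna4 (1.86-fold, 0.0117), Kcna5 (1.60-fold, 0.00524) and Kcna6 (1.63-fold, 0.0408). Against GFP, 3 of these passed (1.71-fold, 1.74-fold and 1.35-fold for Kcna1, Kcna4 and Kcna5), and Kcna6 did not (edgeR adjusted p = 0.0667). The call of Kcna6 also ended without wild type 2, wild type 3 or any rd10 library (edgeR adjusted p from 0.0503 to 0.133), and Kcna5 had a log2 difference below 0 with libraries scaled to inner neuron markers.

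Kcna3, the Kv1 subunit best known from lymphocytes and microglia (chr3:106839080-106841047), had 3.13, 1.83 and 1.00 CPM in wild type, 4.72, 0.917 and 4.10 CPM in GFP and 4.90, 3.62 and 12.5 CPM in rd10. The rd10 libraries overlapped with GFP but not with wild type, and rd10 3 stood apart. Its log2 difference of 1.81 (SE 0.65) did not pass (edgeR adjusted p = 0.0586, and 0.203 against GFP). The 8 microglia markers, which all rose, had a median log2 difference of 1.62.

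Kv beta subunits bind the inside of Kv1 channels. Kcnab1 rose with small spread, from 49.3, 40.4 and 40.4 CPM in wild type to 81.8, 81.9 and 73.6 CPM in rd10, with 39.5, 44.8 and 46.2 CPM in GFP. It was 1.82-fold higher than in wild type (edgeR adjusted p = 0.00191) and 1.82-fold higher than in GFP (edgeR adjusted p = 0.00193). Kcnab3 passed against GFP only (1.31-fold, edgeR adjusted p = 0.0425, against 0.0669 in the wild type comparison). The median of the 3 Kv beta genes was 0.35 on the log2 scale with TMM and -0.35 with libraries scaled to inner neuron markers.

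Kv3 pore subunits close quickly and allow fast firing. Kcnc1 went from 135, 98.3 and 92.5 CPM in wild type to 182, 173 and 219 CPM in rd10, with 127, 111 and 95.5 CPM in GFP, and rose 1.76-fold (edgeR adjusted p = 0.00958). Kcnc2 rose 1.68-fold (0.0115), and Kcnc4 did not pass (log2 difference 0.32, edgeR adjusted p = 0.211). Neither the Kcnc1 nor the Kcnc2 call against wild type ended when a single library was left out.

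Kv4 pore subunits carry the A-type current of dendrites. Kcnd2 (chr6:21166109-21679805) had 17.0, 11.9 and 10.5 CPM in wild type, 16.2, 11.2 and 13.4 CPM in GFP and 24.4, 25.3 and 30.8 CPM in rd10. The rd10 libraries lay above all others, and Kcnd2 rose 2.04-fold (log2 difference 1.03, SE 0.23, edgeR adjusted p = 0.00851) and 1.96-fold against GFP (edgeR adjusted p = 0.0105). Kcnd3 rose 1.93-fold (85.7 ± 15.0 to 165 ± 18.7 CPM, SD, n = 3 each, edgeR adjusted p = 0.00789). Kcnd1 had a log2 difference of -0.69 and did not pass (edgeR adjusted p = 0.196), although with libraries scaled to inner neuron markers it was called lower (log2 difference -1.40, edgeR adjusted p = 0.00729).

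KChIPs are calcium sensors that bind Kv4 channels and raise their surface level. Kcnip4 rose 1.65-fold (60.5, 52.3 and 63.6 CPM in wild type, 104, 97.6 and 90.8 CPM in rd10, edgeR adjusted p = 0.0108) and 1.68-fold against GFP. Kcnip1 rose 1.44-fold (edgeR adjusted p = 0.0267) and 1.49-fold against GFP, and its call against wild type ended without wild type 1, wild type 2, rd10 1 or rd10 2 (0.0672 to 0.083). Kcnip1 overlaps Kcnmb1 on the opposite strand, and whether reads were counted by strand is not given in the sources used here. Kcnip3, also known as a calcium-dependent repressor of transcription, had 52.5, 66.3 and 68.2 CPM in wild type, 55.5, 51.8 and 39.6 CPM in GFP and 72.5, 77.7 and 79.8 CPM in rd10. It passed against GFP (1.57-fold, edgeR adjusted p = 0.0155, and 0.058 without GFP 3) and not against wild type (0.197). The median of the 4 KChIP genes was 0.42 on the log2 scale with TMM and -0.26 with libraries scaled to inner neuron markers.

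**Figure D4:**
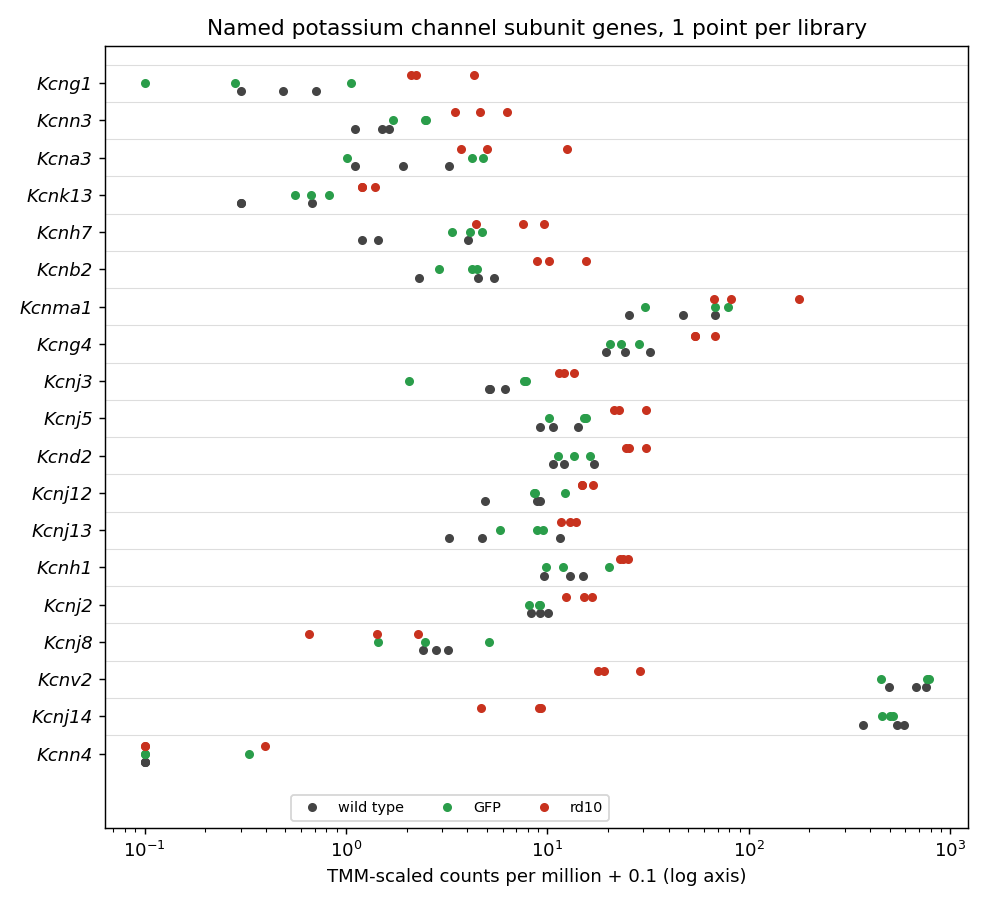
TMM-scaled CPM plus 0.1 (log axis) of 19 potassium channel subunit genes, with 1 point per library for wild type, GFP and rd10. The rd10 points lie to the right of the others for genes such as Kcng4 and Kcnd2, overlap them for Kcnma1 and Kcna3, and lie far to the left for Kcnv2 and Kcnj14.

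EAG, ERG and ELK subunits form slowly or unusually gated Kv channels, among them Kcnh2, the ERG channel of cardiac repolarisation. Of 6 tested, 3 rose against wild type. Kcnh2 rose 1.49-fold (120 ± 13.7 to 180 ± 25.9 CPM, SD, n = 3 each, edgeR adjusted p = 0.0403) and 1.46-fold against GFP (0.0463). That call against wild type ended when any of 7 libraries was left out (all except GFP 1 and GFP 2, 0.0502 to 0.126), and its log2 difference was below 0 with libraries scaled to inner neuron markers.

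Kcnh1, the EAG pore subunit (chr1:194014754-194334040), had 12.8, 14.9 and 9.53 CPM in wild type, 20.1, 9.74 and 11.8 CPM in GFP and 22.8, 23.7 and 24.9 CPM in rd10. The rd10 libraries were close together and above all others, though GFP 1 came near. Kcnh1 rose 1.91-fold against wild type (log2 difference 0.94, SE 0.27, edgeR adjusted p = 0.028), with 0.0538 against GFP, and its call ended without wild type 1, wild type 3 or any rd10 library (0.055 to 0.0967).

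Kcnh7, a further ERG subunit (chr2:62541003-63022344), had 3.94, 1.35 and 1.10 CPM in wild type, 4.63, 4.01 and 3.24 CPM in GFP and 7.51, 4.35 and 9.52 CPM in rd10. It lay above wild type in each rd10 library but overlapped with GFP. Kcnh7 rose 3.34-fold against wild type (log2 difference 1.74, SE 0.48, edgeR adjusted p = 0.0226) and did not pass against GFP (log2 difference 0.85, edgeR adjusted p = 0.185). The call ended without wild type 2, wild type 3, rd10 1 or rd10 3 (0.0621 to 0.0844). Kcnh5, Kcnh6 and Kcnh8 did not pass, with log2 differences from 0.67 to 1.61.

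KCNQ subunits form the M-channel, a brake on repeated firing. Kcnq3 and Kcnq5 did not pass against wild type, with log2 differences of 1.40 (edgeR adjusted p = 0.288) and 0.94 (edgeR adjusted p = 0.228).

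Among inward rectifiers, 10 of 14 were tested, 5 rose and 1 fell against wild type. The G-protein-gated pore subunit Kcnj5 (chr9:32122368-32151822) had 14.1, 10.6 and 9.13 CPM in wild type, 15.5, 10.1 and 15.1 CPM in GFP and 22.5, 21.2 and 30.8 CPM in rd10, above all others. Kcnj5 rose 2.20-fold (log2 difference 1.14, SE 0.25, edgeR adjusted p = 0.00789) and 1.83-fold against GFP (edgeR adjusted p = 0.0236). Its partner in the same channel, Kcnj3 (chr2:55289567-55447936), had 6.06, 5.003 and 5.11 CPM in wild type, 7.71, 1.95 and 7.53 CPM in GFP and 11.9, 13.5 and 11.3 CPM in rd10. The rd10 libraries were again above all others, while GFP 2 was lowest of the 9. Kcnj3 rose 2.27-fold against wild type (log2 difference 1.18, SE 0.40, edgeR adjusted p = 0.0486) and did not pass against GFP (0.0617), and its call ended when any of 7 libraries was left out (all except GFP 1 and GFP 2, 0.0556 to 0.127).

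Classical strong inward rectifiers that clamp the resting potential were Kcnj2 and Kcnj12. Kcnj12 (chr11:60879306-60884633) had 8.79, 9.14 and 4.81 CPM in wild type, 12.1, 8.48 and 8.58 CPM in GFP and 16.8, 14.8 and 14.8 CPM in rd10. It rose 2.03-fold against wild type (log2 difference 1.02, SE 0.27, edgeR adjusted p = 0.0181), a call that ended without wild type 3 or rd10 1 (0.0506 and 0.0594), and did not pass against GFP (0.0816). Kcnj2 (chr11:110927478-110938139) had 9.998, 9.04 and 8.22 CPM in wild type, 9.07, 8.94 and 8.01 CPM in GFP and 16.6, 15.1 and 12.2 CPM in rd10, again with no overlap. It rose 1.61-fold (log2 difference 0.69, SE 0.21, edgeR adjusted p = 0.0296) and 1.69-fold against GFP (0.0193), and the first call ended without wild type 2, wild type 3, rd10 1 or rd10 2 (0.0686 to 0.106).

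Kcnj11, the pore of the ATP-sensitive channel of neurons and beta cells, rose 1.61-fold against wild type (edgeR adjusted p = 0.032) and 1.81-fold against GFP (0.0128), with a call against wild type that ended without wild type 1, wild type 3, rd10 1 or rd10 3 (0.0708 to 0.0999). Kcnj8, its counterpart in pericytes and vascular smooth muscle (chr6:142513459-142519876), had 2.32, 2.69 and 3.11 CPM in wild type, 2.36, 5.04 and 1.33 CPM in GFP and 0.553, 2.17 and 1.33 CPM in rd10. The rd10 libraries lay below wild type but overlapped with GFP, and the log2 difference of -0.999 did not pass (edgeR adjusted p = 0.215). With libraries scaled to inner neuron markers it was called lower (log2 difference -1.68, edgeR adjusted p = 0.0348). Of the 8 vascular markers 1 rose, with a median log2 difference of 0.26.

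Kcnj13, the apical inward rectifier of the pigment epithelium (chr1:89282859-89291304), had 3.13, 11.5 and 4.61 CPM in wild type, 5.71, 9.40 and 8.77 CPM in GFP and 12.8, 13.8 and 11.6 CPM in rd10. Wild type 2 stood far above the other wild type libraries and close to the lowest of rd10. Its log2 difference of 0.99 (SE 0.41) did not pass (edgeR adjusted p = 0.094, and 0.225 against GFP), and it overlaps Gigyf2 on the opposite strand. The 6 pigment epithelium markers, of which 3 rose, had a median log2 difference of 0.99, and their part in the Kcnj13 level was not tested. Kcnj6 and Kcnj9 did not pass either, with log2 differences of 1.60 and 0.52.

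Leak channels of the K2P group were tested in 8 of 14 cases. Of these, 3 rose against wild type, among them Kcnk13, which was tested only because its rd10 counts were high. Kcnk1 rose 1.51-fold, from 50.0, 62.2 and 63.8 CPM in wild type to 87.8, 84.2 and 93.8 CPM in rd10 (edgeR adjusted p = 0.0109), and 1.53-fold against 58.6, 60.4 and 54.7 CPM in GFP (0.00902). Kcnk3, an acid-sensitive leak channel, rose 1.76-fold (39.8 ± 3.43 to 70.0 ± 10.8 CPM, SD, n = 3 each, edgeR adjusted p = 0.0188), and its call against wild type ended without wild type 3 or rd10 3 (0.0647 and 0.0686). Kcnk1 had a log2 difference below 0 with libraries scaled to inner neuron markers.

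Kcnk13, a leak channel of microglia (chr12:101202709-101300892), was rare, with 0.202, 0.577 and 0.201 CPM in wild type, 0.726, 0.458 and 0.572 CPM in GFP and 1.11, 1.29 and 1.11 CPM in rd10. These levels rest on 10 counts in wild type, 18 in GFP and 45 in rd10, and no rd10 library overlapped with the others. As for Kcng1, only the rd10 libraries reached the minimum count, so Kcnk13 was tested only because it was high there. Its values are a description. Kcnk13 rose 3.46-fold against wild type (log2 difference 1.79, SE 0.58, edgeR adjusted p = 0.0414), a call that ended when any of 7 libraries was left out (all except wild type 2 and GFP 2, 0.0511 to 0.132) and with no filter on low counts (edgeR adjusted p = 0.079), and did not pass against GFP (0.193). Kcnk4, a mechanosensitive leak channel, passed against GFP only (2.31-fold, edgeR adjusted p = 0.034). The microglia markers rose as given above, and their part in the Kcnk13 and Kcna3 levels was not tested.

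KCNE subunits cross the membrane once and slow or speed their pore partners. Kcne2 had 54.2, 59.4 and 49.5 CPM in wild type, 54.4, 73.7 and 62.0 CPM in GFP and 47.0, 40.6 and 34.7 CPM in rd10, each rd10 library below the others. It fell 1.55-fold against GFP (edgeR adjusted p = 0.0186), a call that ended without rd10 2 or rd10 3 (0.0622 and 0.0777), and did not pass against wild type (log2 difference -0.42, edgeR adjusted p = 0.0909). Kcne1l did not pass (log2 difference 0.40). Kcnrg, which overlaps Dleu2 on the opposite strand, had a log2 difference of -0.21 and did not pass.

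GFP and wild type retinae served as a comparison of normal with normal. In GFP against wild type, 0 of the 70 genes passed edgeR's adjusted p and 0 had an unadjusted p below 0.05, against 0.0% and 1.5% of all genes, and DESeq2 called 0 as well. With no difference at all, a share of about 0.05 of genes would have an unadjusted p below 0.05. The 1.5% lies under that share, so the test was strict here and a lack of calls is weak evidence of likeness. The median log2 difference was 0.08, with a range from -0.92 to 1.57.

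When single libraries were left out, 10 of the 26 rises against GFP and 14 of the 28 against wild type were called in every such fit. Without rd10 3, the fall of Kcne2 and 12 of the rises against GFP lost their call, among them those of Kcna4, Kcna5, Kcnab3, Kcng1, Kcnh2, Kcnj5, Kcnk3, Kcnk4, Kcnn3 and Kcnt1. The calls of Kcnip1, Kcnj2 and Kcnj11 ended without rd10 1, that of Kcnip3 without GFP 3, and several of these genes lost their call without other libraries too. Over those fits the edgeR adjusted p reached 0.158 for Kcnn3, 0.153 for Kcnh2, 0.137 for Kcnab3 and 0.133 for Kcnk3, and 0.119 for Kcna5.

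Genes that act with potassium channels were read from lists of 34 partner genes, 32 of them tested, of which 16 rose and 3 fell in rd10 against wild type (median log2 difference 0.75, with 14.5% and 13.9% of all genes called higher and lower), and 17 rose and 2 fell against GFP (with 15.2% and 15.0% of all genes). The Kv4 auxiliary peptidase-like proteins Dpp6 (168 ± 10.4 to 285 ± 41.7 CPM, SD, n = 3 each, 1.70-fold, edgeR adjusted p = 0.0103) and Dpp10 (1.77-fold, 0.0179) rose beside Kcnd2 and Kcnd3. Of the 6 genes of the axonal Kv1 complex 5 rose against wild type, for instance Lgi1 (1.97-fold, 0.00253) and the anchor Cntnap2 (1.68-fold, 0.00306). The scaffold Dlg4 fell against wild type (1.73-fold, 0.0451). Against GFP 5 of the 6 rose and 0 fell. The BK gamma subunits Lrrc38 (2.41-fold, 0.00607) and Lrrc55 (1.91-fold, 0.0278) rose against wild type, while Kcnma1 did not pass. Against GFP 1 of these 2 BK gamma subunits rose. Abcc8, the sulfonylurea receptor that pairs with Kcnj11, rose 1.99-fold (0.00812), and Abcc9, which pairs with Kcnj8, did not pass (0.901).

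Of the 4 genes of a glial potassium and water channel list, 2 rose and 1 fell in both rd10 comparisons. The Müller glia rectifier Kcnj10 rose from 84.0 ± 12.4 to 155 ± 19.4 CPM (SD, n = 3 each, 1.85-fold, edgeR adjusted p = 0.00469), and the water channel Aqp4 of the same end feet rose 2.46-fold (0.000302).

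By the medians of their classes, long transcripts varied between libraries of the same group more than short ones. Single shorter genes, such as Kcna3, Kcnh5 and Kcnj6, moved as far in the same libraries. Of the 70 tested genes, 12 have a longest transcript of at least 7000 bases, among them Kcnma1, Kcnh1, Kcnh7, Kcna2, Kcnb2, Kcnc1 and Kcnd3. Among the 12, wild type 1 was the highest of its group in 11 and wild type 3 the lowest in 10, rd10 3 was the highest in 11 and rd10 2 the lowest in 10, and GFP 1 was the highest in 11 and GFP 2 the lowest in 8. The median deviation of the 12 from their group mean was 0.59 on the log2 scale in wild type 1, -0.45 in wild type 3, 0.46 in rd10 3 and -0.41 in rd10 2. In the 58 shorter genes the same medians were 0.09, -0.10, 0.10 and -0.07. Kcnb2 and Kcnma1, described above, had their lowest wild type value in wild type 3 and their highest rd10 value in rd10 3, and the part of transcript length in their differences was not tested beyond the fit that follows.

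**Figure D5:**
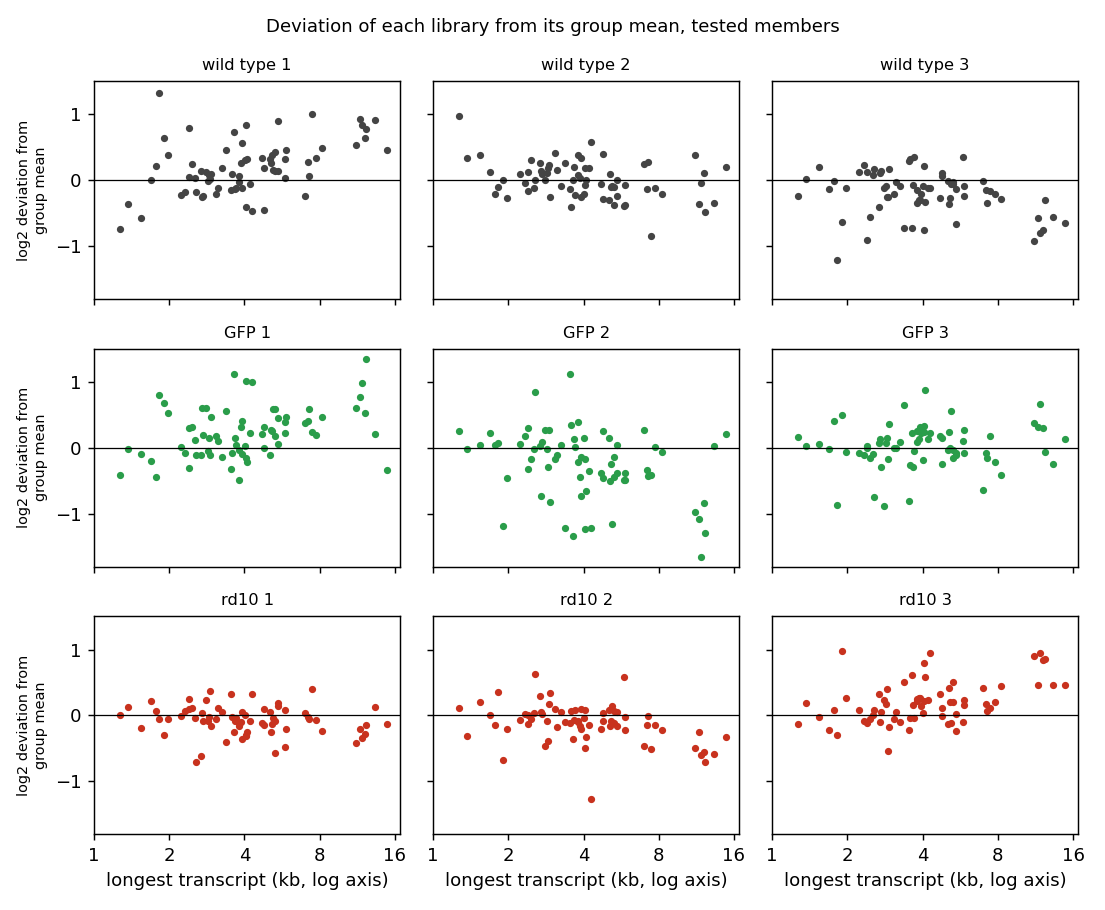
Log2 deviation of each library from its group mean against the length of the longest transcript (kilobases, log axis), with 1 point per tested gene and 1 panel per library. Points at the right end lie above 0 in wild type 1, rd10 3 and most of GFP 1, and below 0 in wild type 3 and rd10 2.

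With a smooth trend on transcript length removed from each library, 32 of the potassium channel genes rose (45.7%, with 16.8% of all genes) and 4 fell (5.71%, with 19.1% of all genes) in rd10 against wild type, with a median log2 difference of 0.67. The trend was fitted to deviations from the mean of all libraries and not of each group. That fit therefore also removes any difference between groups that follows length. The calls of Kcnj2 ended in that fit (edgeR adjusted p = 0.0939 against wild type and 0.0628 against GFP). Kcnb2 then stood at 1.10, Kcnh7 at 1.40, Kcnv2 at -5.07 and Kcnj14 at -6.01 on the log2 scale. Kcna2, a long Kv1 gene that did not pass before (log2 difference 1.29, edgeR adjusted p = 0.0721), then stood at 0.98 with an edgeR adjusted p of 0.0277.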

How the data were processed

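The deposited files held 1 whole-number count per gene and library, which the authors made from reads on genome build mm9, per the submitters' processing notes. The aligner, annotation, counting program and strand setting are not given in the sources used here. Genes were kept with filterByExpr (minimum count 10, minimum total 15), scaled with TMM and tested with edgeR 4.0.16 (R 4.3.3) in 1 quasi-likelihood model over the 9 libraries, with Benjamini-Hochberg adjustment over all 14300 genes tested. A gene was called at adjusted p below 0.05. The fitting code was tested on simulated data in which few genes were changed, all above a minimum level. For rd10 against wild type these were 101 genes at 2-fold and 99 at 4-fold, of 13947. In the data 2067 genes were called higher and 1988 lower in that comparison. The adjusted p depends on how many genes change, so the recovered shares hold for the simulated setting only. Of changes set at 2-fold it recovered 36.6% in rd10 against wild type, 30.9% in rd10 against GFP and 39.8% in GFP against wild type. Of changes set at 4-fold it recovered 94.9%, 93.4% and 95.5%. A gene that did not pass can still differ by 2-fold. Values in every library are given for genes called in rd10 against wild type with at least a 2-fold change and a mean of at least 1 CPM, and for a fixed set of genes. Some genes are not reported here, although counts and medians over all tested genes include them. Other genes shown per library were picked after their values were seen. The genes and lists were chosen with earlier results of these data known. Transcript lengths were taken from GENCODE M21 and promoters from RefSeq. The alternatives were DESeq2 1.42.0, other scalings, no filter on low counts, only the groups compared, a replicate block, removal of a trend on transcript length, and leaving out single libraries or those with lens RNA. Leaving out wild type 3 and GFP 2 together was added after seeing the data. With 8.72 to 13.6 counts per TMM-scaled CPM, counting error limits genes near 1 CPM.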

Additional observations from a re-analysis of the deposited data

How the results depend on the processing

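With libraries scaled to inner neuron markers, 5 of the 28 risers against wild type and 8 of the 26 against GFP had a log2 difference below 0, none of them a gene that the naming rule selects. Among comparisons of a gene so selected with an alternative, 944 of 1081 kept their side of the threshold, 88 lost a call and 35 gained one. GFP against wild type, which had no call to lose, gave 347 of the 944. In rd10 against wild type 280 kept their side, 63 lost a call and 18 gained one. In rd10 against GFP 317 kept their side, 25 lost a call and 17 gained one. In rd10 against wild type, 28 rose (with 14.5% of all genes) and 4 fell (with 13.9%), with a median log2 difference of 0.77. Scaling to library totals gave 45 risers (with 25.2% of all genes) and a median of 1.05. Scaling to inner neuron markers gave 2 risers (with 1.68% of all genes), 8 that fell (with 51.7%) and a median of 0.078. Without the libraries that held lens RNA, which leaves a lone wild type library, the median was 0.68. DESeq2 gave 38 risers (54.3%, with 18.2% of all genes). Leaving out 1 library gave 16 risers without wild type 3 (with 8.82% of all genes). It gave 17 without rd10 1 (8.78%), 18 without rd10 3 (8.79%) and at most 37, without GFP 2 (19.9%). In these fits 3 to 4 fell (with 8.21% to 17.4% of all genes), and medians ran from 0.69 to 0.94. Of the 28 risers 14 were called in every such fit, and of the 4 that fell 3. Without wild type 3 and GFP 2, an alternative added after seeing the data, 30 rose (with 16.4% of all genes) and 3 fell (with 16.1%).

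In rd10 against GFP, 26 rose (with 15.2% of all genes) and 4 fell (with 15.0%), with a median of 0.75. Library totals gave 42 risers (with 28.3% of all genes) and a median of 1.08. Upper quartile scaling gave a median of 0.86. Inner neuron markers gave 2 risers (with 2.04% of all genes), 8 that fell (with 51.5%) and a median of 0.069. Removal of the length trend gave a median of 0.62. Leaving out the lens libraries gave 9 risers (with 5.96% of all genes) and a median of 0.85. Leaving out wild type 3 and GFP 2 gave a median of 0.64. Leaving out 1 library gave 14 risers without rd10 3 (with 9.0% of all genes) and 15 without rd10 1 (8.98%) or GFP 3 (9.33%). It gave 16 without rd10 2 (9.79%) and up to 31, without GFP 1 (15.0%). Medians in these fits ran from 0.63 to 0.86, and 10 of the 26 were called in every such fit. The cause was not tested. In GFP against wild type the count of calls was 0 under each alternative run, and the median moved to -0.20 without the lens libraries.

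Replicate numbers are shared between groups only as numbers, and deviations of same-numbered libraries correlated between -0.37 and 0.36, so they were not taken as pairs. With the replicate number as a block, 28 rose (with 12.7% of all genes) and 4 fell (with 12.5%) against wild type, 24 of the 28 the same genes. Against GFP 24 rose (with 14.0% of all genes) and 4 fell (with 13.4%).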
